A study of Mus musculus with 4 samples.

Results

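The protein tyrosine phosphatase genes were taken as the protein-coding genes of the RefSeq GRCm38.p6 annotation whose symbols follow the Ptpn and Ptpr series, and their coverage by called H3K79me2 peaks was compared between lysine and PBS. Of 38 symbols of that form 37 were protein coding, among 21900 protein-coding genes in all. Ptprv, a transcribed pseudogene in this annotation, was left out. The members were 20 receptor-type genes (Ptpr), whose products span the membrane, and 17 non-receptor genes (Ptpn). They were also divided by known expression into 6 leukocyte genes, 10 broadly expressed genes and 21 genes known mainly from other tissues.

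The cells were dendritic cells derived from the bone marrow of C57BL/6J mice (BMDCs), which present antigen, kept in medium with fetal bovine serum. They received lysine at 18 mM for 6 h, or PBS, for which the labels state no time. H3K79me2, dimethylation of a lysine in the globular core of histone H3, was measured by ChIP-seq, the sequencing of DNA that is pulled down with the modified histone, with 1 H3K79me2 library and 1 input library per condition. The inputs were not analysed here. With 1 library per condition no difference could be set against a spread between replicates, so every value below describes these 2 libraries and no test was made.

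Protein tyrosine phosphatases remove phosphate from tyrosine and so oppose tyrosine kinases, or activate them where the phosphate is inhibitory. In myeloid cells Ptprc (CD45) and Ptprj (CD148) free Src family kinases from their inhibitory phosphotyrosine, and Ptpn6 (SHP-1) and Ptpn11 (SHP-2) act at receptors that carry inhibitory motifs. H3K79me2 is deposited by Dot1l and lies over transcribed genes, usually from the start into the first part of the gene.

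The lysine list held 9805 peaks and the PBS list 11926, and read depth is unknown because the lists give no read totals. Over all protein-coding genes, peaks covered 3171 kb in lysine and 3984 kb in PBS, a lysine to PBS ratio of 0.796. Markers of the labelled cells were covered in part. Of 16 dendritic cell markers 6 had a peak in lysine and 10 in PBS, with 5725 bp covered in lysine and 9452 bp in PBS. These shares, 37.5% in lysine and 62.5% in PBS, stood beside 31.4% and 34% of all protein-coding genes. Itgax, Cd86 (1081 bp in lysine, 2478 bp in PBS), Csf2ra (1512 bp in lysine, 1459 bp in PBS), Flt3, Irf8 and Cd74 (2134 bp in lysine, 900 bp in PBS) had a peak in both libraries. H2-Ab1, with 0 bp in lysine and 2442 bp in PBS, differed the most, and Ciita, Zbtb46 and H2-Eb1 also had a peak in PBS alone. No peak lay on Spi1, Irf4, Batf3, Ccr7, Csf2rb or H2-Aa in either library. Of 9 macrophage and monocyte markers 2 had a peak in lysine and 6 in PBS (1482 bp in lysine and 2406 bp in PBS), with Adgre1, Lyz2 and Ly6c2 at 0. The shares were 22.2% in lysine and 66.7% in PBS, the latter above that of dendritic cell markers. Csf1r had 1160 bp in lysine and 1171 bp in PBS and Cd68 322 bp in lysine and 172 bp in PBS, while Mertk (341 bp), Cd14 (340 bp) and Fcgr1 (325 bp) had a peak in PBS alone. Of 9 neutrophil markers 1 had a peak in lysine and 2 in PBS (346 bp in lysine and 570 bp in PBS), which were Ltf in both and S100a8 in PBS, and Ly6g, Mpo and Elane were at 0. All 10 T, NK and B cell markers, Cd3e and Cd79a among them, were at 0 in both libraries. In each of the lists of 6 stromal and endothelial and 6 neuronal and epithelial markers 1 gene had a peak in both libraries, Pdgfrb (345 bp in lysine, 369 bp in PBS) and Cdh1 (1255 bp in lysine, 1527 bp in PBS). The part of other cells in the results was not tested.

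In both libraries a larger share of leukocyte and broadly expressed phosphatase genes than of those of other tissues carried a peak. The classes were set with earlier results of these data known, so their contrast is a description and no independent test. At least 1 peak lay on 4 of 6 leukocyte members in lysine and 4 of 6 in PBS, and on 7 of 10 broadly expressed members in lysine and 7 of 10 in PBS. Of the 21 members of other tissues 1 had a peak in lysine and 4 had one in PBS. Over all protein-coding genes the shares were 31.4% in lysine and 34% in PBS, and over all 37 members 32.4% in lysine (12 genes) and 40.5% in PBS (15 genes). Without matching for gene length, the family as a whole thus lay near the background, while its classes lay above and below it. From 20 to 100 kb 35.7% of members had a peak in lysine and 42.9% in PBS, beside 40.2% and 43.5% of all genes. From 100 to 200 kb it was 50% of members in each library, beside 43.0% and 47.5% of all genes. Above that it was 11.1% of members in lysine and 33.3% in PBS, beside 33.9% and 38.8% of all genes. Under 20 kb it was 25% in each library, beside 24.1% and 25.9%. Median gene length was 84.3 kb for leukocyte members, 64.4 kb for broadly expressed members and 173 kb for members of other tissues, so the classes with more peaks were those of shorter genes. Among members of 50 kb or longer, all 4 leukocyte genes had a peak in each library, as did 4 of 7 broadly expressed genes. Of the 20 genes of other tissues at that length 1 had a peak in lysine and 4 in PBS, where 40.9% of all genes of 50 kb or longer had one in lysine and 45.2% in PBS.

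By the share of summed gene length covered, not matched for gene length, the order was leukocyte, broadly expressed, other tissues. Peaks covered 1.58% of the summed length of leukocyte genes in lysine and 2.45% in PBS. For broadly expressed genes it was 0.619% in lysine and 0.852% in PBS, and for genes of other tissues 0.00433% in lysine and 0.0171% in PBS. Over all protein-coding genes the share was 0.302% in lysine and 0.379% in PBS. This share fell with gene length, in PBS from 1.35% over all genes under 20 kb to 0.100% over those of 200 kb or longer. All 9 members of 200 kb or longer belonged to other tissues. From 100 to 200 kb, 3 leukocyte genes had 1.51% in lysine and 2.32% in PBS, and 4 genes of other tissues 0. The 3 broadly expressed genes had 0.639% in lysine and 0.363% in PBS, and all genes 0.204% and 0.296%. Under 20 kb the 2 leukocyte genes were at 0. At least 500 bp, the length from which a gene is called marked here, lay under peaks on 7 members in lysine (4 leukocyte and 3 broadly expressed) and on 8 in PBS (4 leukocyte and 4 broadly expressed). No member of other tissues was marked in either library. Of all protein-coding genes 9.02% were marked in lysine and 11.4% in PBS, not matched for gene length. From 20 to 100 kb 2 of 14 members were marked in lysine and 4 in PBS, beside 945 and 1160 of 7610 genes. From 100 to 200 kb it was 5 of 10 members in lysine and 4 in PBS, beside 257 and 363 of 1439 genes. At 200 kb or longer it was 0 of 9 members, beside 202 and 256 of 990 genes. Under 20 kb it was 0 of 4 members, beside 572 and 709 of 11861 genes.

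**Figure D1:**
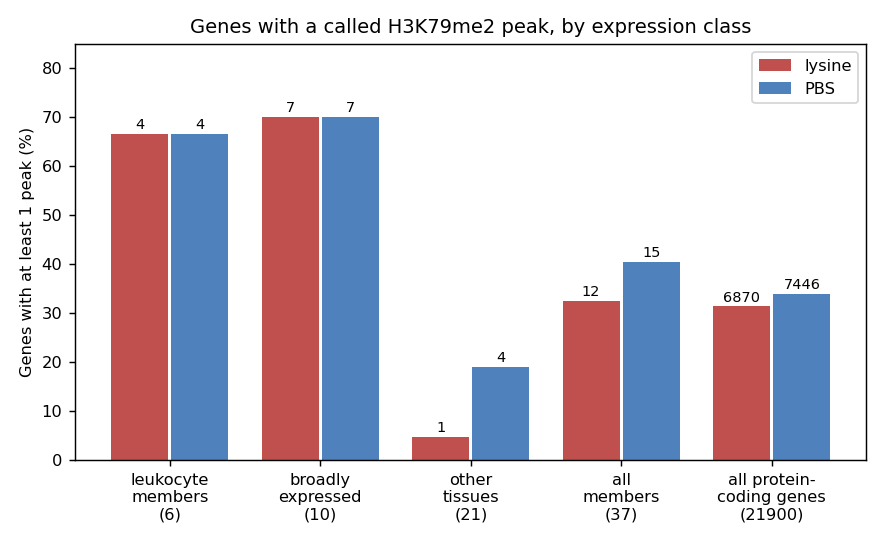
Share of genes with at least 1 called H3K79me2 peak (y axis, percent) in each expression class of phosphatase genes, in all 37 members and in all 21900 protein-coding genes, for lysine (red, left) and PBS (blue, right). Numbers over the bars count genes with a peak, and those in brackets under the axis count genes in the class. Leukocyte and broadly expressed members stand above all genes and members of other tissues below, in both libraries. The classes were set with earlier results of these data known.

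Starts of 9 members were touched by a peak, and these are the places where the promoter sequence can be read beside the signal. RefSeq start windows (GRCm38.p6, 250 bases before to 50 after a start) were at hand for 32 members. Windows of Ptprc, Ptpn22, Ptpn1, Ptpn23 and Ptpra were touched in both libraries, those of Ptpn3 and Ptpn18 in lysine alone and those of Ptpn4 and Ptprs in PBS alone. That made 7 members in lysine and 7 in PBS, 21.9% each, against 26.7% in lysine and 28.1% in PBS of the 17492 protein-coding genes with a window. The 250 bases before the start are printed 5′ to 3′ for the 5 members touched in both libraries, for Ptpn3 and Ptprs as members touched in 1, and for Ptpn6 as a leukocyte gene without a peak. Capitals mark 4 motifs on either strand, with overlapping matches run together: the GC box, spelled GGGCGG, an ETS motif, spelled CCGGAAG, a purine-rich ETS core, spelled GAGGAA, and the TATA box, spelled TATAAA.
Ptprc (chr1:138175306-138175555, minus strand): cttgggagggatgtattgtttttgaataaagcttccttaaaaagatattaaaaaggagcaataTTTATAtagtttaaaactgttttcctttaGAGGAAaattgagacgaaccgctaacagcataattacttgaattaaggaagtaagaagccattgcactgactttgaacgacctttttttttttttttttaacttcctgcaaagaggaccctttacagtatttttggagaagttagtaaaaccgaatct
Ptpn22 (chr3:103860027-103860276, plus strand): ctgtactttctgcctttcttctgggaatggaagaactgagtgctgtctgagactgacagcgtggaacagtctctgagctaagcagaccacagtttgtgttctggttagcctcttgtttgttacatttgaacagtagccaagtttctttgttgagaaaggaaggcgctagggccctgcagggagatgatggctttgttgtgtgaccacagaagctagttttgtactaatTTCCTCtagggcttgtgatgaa
Ptpn1 (chr2:167932077-167932326, plus strand): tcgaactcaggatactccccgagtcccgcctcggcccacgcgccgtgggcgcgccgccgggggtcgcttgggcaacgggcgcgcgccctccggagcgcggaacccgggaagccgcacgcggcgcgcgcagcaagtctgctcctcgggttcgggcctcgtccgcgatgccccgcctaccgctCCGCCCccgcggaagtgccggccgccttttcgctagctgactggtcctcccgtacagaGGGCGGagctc
Ptpn23 (chr9:110408211-110408460, minus strand): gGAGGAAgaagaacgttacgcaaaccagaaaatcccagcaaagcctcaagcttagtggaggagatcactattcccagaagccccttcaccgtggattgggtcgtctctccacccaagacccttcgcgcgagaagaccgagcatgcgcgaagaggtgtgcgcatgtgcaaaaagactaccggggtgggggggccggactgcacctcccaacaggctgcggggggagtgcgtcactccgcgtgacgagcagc
Ptpra (chr2:130450028-130450277, plus strand): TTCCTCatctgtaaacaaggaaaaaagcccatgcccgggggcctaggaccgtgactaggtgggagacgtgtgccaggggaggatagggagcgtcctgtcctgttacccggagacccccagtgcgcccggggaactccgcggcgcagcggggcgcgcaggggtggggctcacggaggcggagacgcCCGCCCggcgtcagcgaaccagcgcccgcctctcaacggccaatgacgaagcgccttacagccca
Ptpn3 (chr4:57301838-57302087, minus strand): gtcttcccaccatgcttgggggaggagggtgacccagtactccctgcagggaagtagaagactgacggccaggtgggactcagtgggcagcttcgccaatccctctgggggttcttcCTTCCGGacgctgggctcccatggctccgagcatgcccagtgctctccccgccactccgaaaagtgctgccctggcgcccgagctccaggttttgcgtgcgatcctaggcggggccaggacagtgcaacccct
Ptprs (chr17:56476481-56476730, minus strand): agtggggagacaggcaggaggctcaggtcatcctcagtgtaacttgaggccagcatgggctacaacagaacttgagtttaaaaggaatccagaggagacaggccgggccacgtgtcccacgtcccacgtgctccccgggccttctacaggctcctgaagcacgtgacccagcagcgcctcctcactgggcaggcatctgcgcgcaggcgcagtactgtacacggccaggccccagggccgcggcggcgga
Ptpn6 (chr6:124738710-124738959, minus strand): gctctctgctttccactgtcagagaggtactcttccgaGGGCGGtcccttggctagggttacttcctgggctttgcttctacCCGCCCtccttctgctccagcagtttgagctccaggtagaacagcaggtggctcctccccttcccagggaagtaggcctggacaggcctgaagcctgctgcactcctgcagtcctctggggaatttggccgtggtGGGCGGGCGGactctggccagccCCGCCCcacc

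The starts under peaks differed in base composition. Those of the leukocyte genes Ptprc and Ptpn22 were poor in CpG, with 4 and 2 CpG dinucleotides and a GC content of 31.6% and 46.0% in the sequences printed. Those of Ptpn1, Ptpn23 and Ptpra held 41, 18 and 25 CpG at 75.2%, 60.0% and 68.0% GC. The promoter of Ptpn6, without a peak, had 7 CpG and 5 GC boxes, some overlapping. Over the 46 start windows of the 32 members the median was 15 CpG, both for the 11 windows under a peak in either library and for the 35 under none. Over all protein-coding start windows it was 18 under a peak and 5 under none. GAGGAA was found in 5 of the 11 member windows under a peak and 13 of the other 35, against 21.0% of all windows under a peak, 22.8% of those under none and 22.2% of all 21263. GGGCGG was found in 3 of the 11 (27.3%) and 21 of the 35 (60.0%). Over all windows the order was the other way, with 65.2% under a peak and 32.8% under none, and 42.6% in all. TATAAA was found in 1 of the 11 and 1 of the 35 (4.87% of all windows under a peak, 14.6% under none, 11.6% in all), and CCGGAAG in 1 of the 11 and 2 of the 35 (18.6% of all windows under a peak, 4.80% under none, 8.98% in all). A match describes the letters and not binding.

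Most members with a peak were covered over a shorter length in lysine than in PBS. Of the 16 members with a peak in either library 14 were shorter in lysine and 2 longer, where 58.2% of all genes with a peak were shorter and 41.5% longer. In total 13.068 kb of the members lay under peaks in lysine and 20.224 kb in PBS, a ratio of 0.646, compared with 0.796 over all protein-coding genes. Without Ptprj, left out after its value was seen, the totals were 10.111 kb in lysine and 14.488 kb in PBS, a ratio of 0.698. With both lists held to their strongest 9805 peaks the ratio was 0.742 for the members and 0.950 for all genes. The median difference over the 16 genes was -314 bp, and over all genes with a peak it was -38 bp. The values over all genes were not matched for length, and the median length was 104 kb for members and 17.1 kb for all genes. As deposited, the ratio among genes of 20 to 100 kb was 0.450 for members and 0.821 for all genes. From 100 to 200 kb the order turned, with 0.807 for members and 0.689 for all genes. Above 200 kb it was 0.316 for members and 0.675 for all genes. The peaks themselves were of middling strength. The median fold enrichment over local background, the authors' value, was 4.65 on members and 4.48 in the whole list in lysine, and 4.46 on members and 4.52 in the whole list in PBS. The difference reached 500 bp toward PBS in 5 members (Ptprj, Ptpn12, Ptpn22, Ptpn1 and Ptpn2), as in 4.26% of all genes. Ptpn1 was under that length, with 904 bp in lysine and 935 bp in PBS, without peaks under a −log10 q of 2, with equal numbers of peaks and by narrow blocks. It reached 1000 bp toward PBS in 2 of the 5, Ptprj and Ptpn12, as in 1.53% of all genes. It reached 500 bp toward lysine in 1, Ptpn3, as in 1.83% of all genes. Less of the mark per cell and fewer cells with the mark cannot be told apart in bulk chromatin.

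**Figure D2:**
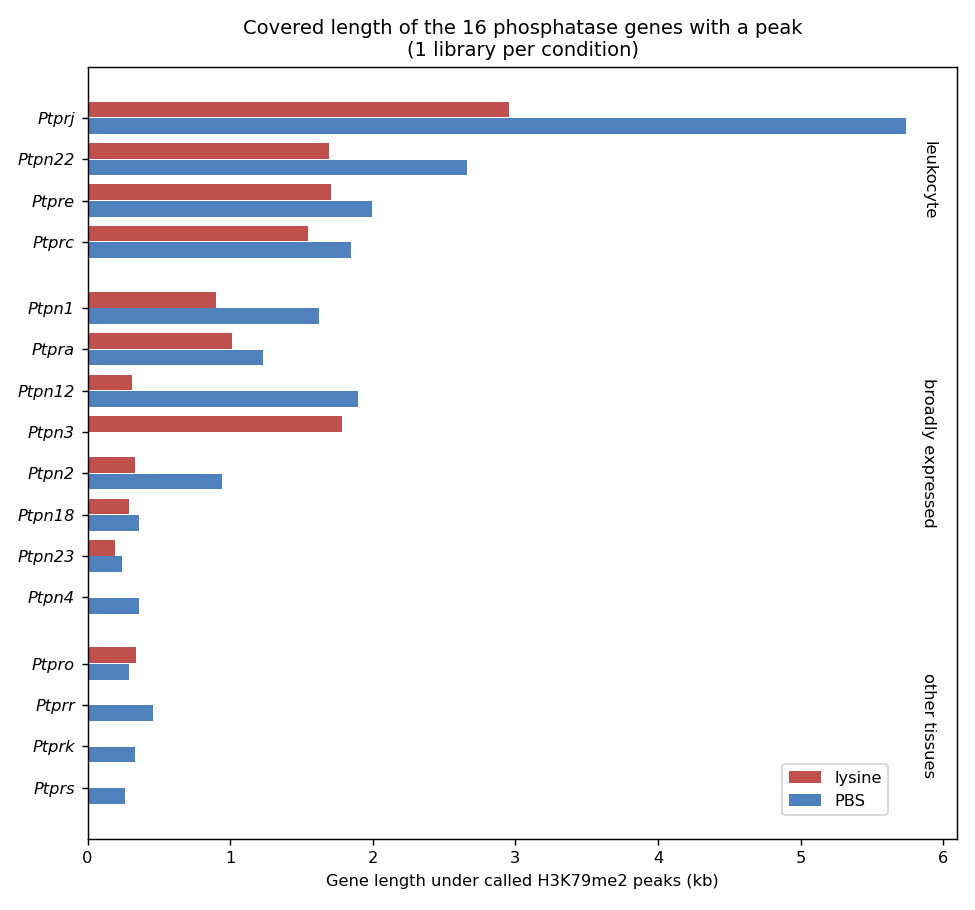
Gene length under called H3K79me2 peaks (x axis, kb) in lysine (red, upper bar) and PBS (blue, lower bar) for the 16 phosphatase genes with a peak, grouped by expression class and ordered by the sum of both libraries. Ptprj has the longest PBS bar at 5736 bp, and Ptpn3 has a lysine bar (1784 bp) and no PBS bar.

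Among the receptor-type leukocyte genes, Ptprj had the most covered length of all members in both libraries and the largest shortfall in lysine. Ptprj (chromosome 2, 90429756 to 90580694, minus strand) encodes CD148. It had 5 lysine peaks over 2957 bp and 6 PBS peaks over 5736 bp, which is 1.96% of the gene in lysine and 3.80% in PBS. All 5 lysine peaks lay on PBS peaks, so 94.5% of the lysine length was also under PBS peaks, while 48.7% of the PBS length was under lysine peaks. The widest gap at a single place lay 90.9 kb into the gene, where a lysine peak of 319 bp stood inside a PBS peak of 1777 bp. Of that PBS peak 460 bp were in narrow blocks, the stronger stretches that the authors' gapped list marks within a broad peak, and all 319 bp of the lysine peak. By narrow blocks Ptprj had 2107 bp in lysine and 3583 bp in PBS. That PBS peak was stronger by −log10 q than 82.3% of its list and the lysine peak than 27.0% of its list. Near the start, a lysine peak of 1399 bp centred 1.6 kb in lay opposite a PBS peak of 1817 bp. Further peaks lay 6.4 kb (443 bp in lysine, 438 bp in PBS), 37.6 kb (500 bp in lysine, 814 bp in PBS) and 75.6 kb (296 bp in lysine, 468 bp in PBS) into the gene, and a peak of 422 bp at 58.5 kb was called in PBS alone. Within its list the lysine peak ranked higher near the start (55.1%, PBS 38.1%) and at 75.6 kb (74.7%, PBS 35.1%). At 37.6 kb the ranks were close, at 82.4% in lysine and 81.6% in PBS. At 6.4 kb the PBS peak ranked higher, at 72.9% beside 65.3% in lysine. No peak touched either listed start of Ptprj. Ptprj overlaps the gene Gm46752, and no covered length was shared with it.

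Ptprc (chromosome 1, 138062859 to 138175756, minus strand), the CD45 gene, had the same 3 peaks in both libraries. They covered 1546 bp in lysine and 1844 bp in PBS. The peak at the start was 307 bp wide in lysine and 653 bp in PBS, and the peak about 16 kb in was 556 bp wide in lysine and 693 bp in PBS. The peak about 39 kb in was wider in lysine, at 683 bp, than in PBS, at 498 bp. The start peak ranked low in lysine, above 9.61% of its list, and in the middle in PBS, above 48.9%. The direction of the small difference between the libraries turned with the threshold: with peaks from a −log10 q of 5 upward Ptprc was 185 bp longer in lysine.

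Ptpre (chromosome 7, 135537824 to 135686294, plus strand), which encodes a receptor-type phosphatase of haematopoietic cells, among others, and its nearest relative Ptpra were close in both libraries. Ptpre had 3 peaks over 1706 bp in lysine and 4 over 1998 bp in PBS. Its strongest peak lay 107 kb from the most upstream start, with a width of 472 bp in lysine and 817 bp in PBS. In lysine it was above 92.4% of its list, and in PBS above 81.9%. A place 117 kb in had a wider peak in lysine, 955 bp, than in PBS, 569 bp, and a place 51 kb in had 279 bp in lysine and 331 bp in PBS. A weak PBS peak of 281 bp over the non-coding gene 5830432E09Rik had no lysine partner. No Ptpre peak touched a start. Without peaks under a −log10 q of 2 the direction turned, to 558 bp more in lysine. Ptpra (chromosome 2, 130450278 to 130554300, plus strand), an activator of Src in many tissues, had 3 peaks in each library at matching places, over 1011 bp in lysine and 1228 bp in PBS. They lay at its start (486 bp wide in lysine, 685 bp in PBS), 38.5 kb in (387 bp in lysine, 406 bp in PBS) and 40.7 kb in (512 bp in lysine, 427 bp in PBS). The start peak also covered the non-coding gene Gm52562, and which gene it belongs to cannot be told apart.

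**Figure D3:**
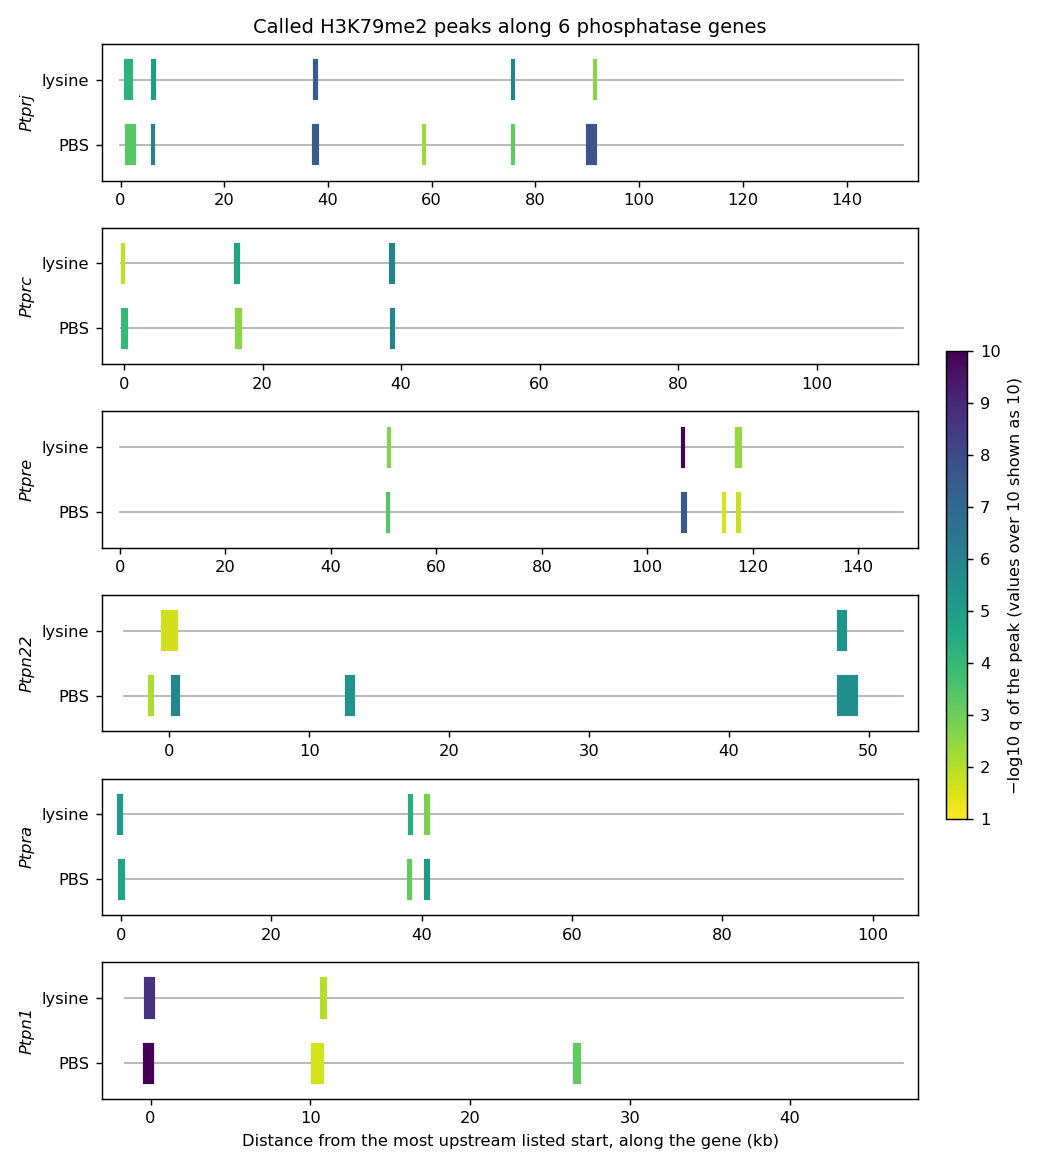
Called H3K79me2 peaks (coloured blocks, drawn to scale with a thin outline) along 6 phosphatase genes, by distance from the most upstream listed start in kb (x axis, a scale of its own for each gene), with lysine above PBS. Grey lines show the annotated gene and the colour gives −log10 q. Most lysine peaks lie where PBS has one, several PBS peaks have no lysine partner (Ptprj at 58.5 kb, Ptpn22 at 12.9 kb, Ptpn1 at 26.7 kb), and the Ptprj peak near 91 kb is 319 bp wide in lysine and 1777 bp in PBS.

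Of the non-receptor leukocyte genes, Ptpn22 was marked in both libraries, and Ptpn6 and Ptpn7 had no peak in either. Ptpn22 (chromosome 3, 103856575 to 103912252, plus strand) encodes a phosphatase that works with the kinase Csk to restrain Src family kinases. It had 2 lysine peaks over 1690 bp and 4 PBS peaks over 2661 bp, or 3.04% of the gene in lysine and 4.78% in PBS. As deposited, these were the highest shares of gene length among the members in both libraries. In lysine that rested on a weak peak at the start with 0 bp in narrow blocks: without peaks under a −log10 q of 2 Ptpn22 had 587 bp in lysine and 2661 bp in PBS. At its start, whose promoter is printed above, a weak lysine peak of 1103 bp, above 4.75% of its list, lay opposite a PBS peak of 486 bp, above 70.9%. A second place 48 kb in had 587 bp in lysine and 1365 bp in PBS, and peaks of 285 bp upstream of the listed starts and of 525 bp at 12.9 kb were called in PBS alone. Ptpn6 (chromosome 6, 124720707 to 124738709), the SHP-1 gene, and Ptpn7, which encodes a phosphatase of MAP kinases in haematopoietic cells, are short genes of 18003 and 13491 bp. Of all genes under 20 kb 24.1% had a peak in lysine and 25.9% in PBS. Absence of a called peak does not exclude weaker enrichment on these genes, below what the caller reports. Only Ptprj and Ptpn22 kept their direction, with a difference other than 0, under all 8 alternative treatments of the peaks and gene ends run on single members. In 1 of the 8, which kept peaks of at least 1 kb, only Ptprj, Ptpn22, Ptpn3 and Ptpn12 had a peak. All other members were bound to give 0 there, so this criterion could not show their stability. By sign alone, 10 of the 16 members with a peak never turned and 6 did.

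Of the 8 broadly expressed genes with a peak, Ptpra included, 7 were shorter in lysine, and the strongest peaks lay at the starts of Ptpn1 and Ptpn23. Ptpn1 (chromosome 2, 167930750 to 167979385, plus strand), the PTP1B gene, whose product acts on the insulin receptor and Jak2, had 904 bp in 2 lysine peaks and 1621 bp in 3 PBS peaks. Its start peak was of similar width in both, 615 bp in lysine and 589 bp in PBS, and stronger than 87.8% of the lysine list and 98.0% of the PBS list. The fold enrichment of that peak was 6.54 in lysine and 9.20 in PBS. A weak peak deeper in the gene was 289 bp wide in lysine and 686 bp in PBS, and a PBS peak of 346 bp at 26.7 kb had no lysine partner. Its relative Ptpn2 (chromosome 18, 67665501 to 67724632), a phosphatase of Janus kinases, had 335 bp in lysine and 940 bp in PBS. A peak at the upper end of the gene, 558 bp wide in lysine and 900 bp in PBS, was found in both libraries, and a second PBS peak of 463 bp lay 24865 bp from that end. Ptpn23 (chromosome 9, 110385084 to 110408210, minus strand), whose product sorts receptors on endosomes, had 1 peak at its start, 530 bp wide in lysine and 555 bp in PBS. As part of that peak lay before the gene, 194 bp counted as covered in lysine and 241 bp in PBS.

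Ptpn12, Ptpn18 and Ptpn22 form 1 subfamily with proline-rich tails, and all 3 had a peak in each library. Ptpn12 (chromosome 5, 20986645 to 21055911), the PTP-PEST gene, which acts on focal adhesion proteins, had 310 bp in lysine and 1896 bp in PBS, the second largest shortfall after Ptprj. A lysine peak of 310 bp near the upper end of the gene lay inside a PBS peak of 1432 bp, of which 556 bp were in narrow blocks. A further PBS peak of 464 bp lay deeper in the gene. None of these 3 peaks reached a −log10 q of 5, where the gene had no peak in either library. Ptpn18 (chromosome 1, 34459729 to 34473784) had 291 bp in lysine and 361 bp in PBS, from 2 weak peaks at different places. The lysine peak lay at the start, where it also covered the non-coding gene Gm32504, and the PBS peak 3.2 kb in. Both were among the weakest of their lists, above 3.87% in lysine and 2.84% in PBS.

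Ptpn3 and Ptpn4, a pair of related phosphatases with FERM and PDZ domains, went opposite ways. Ptpn3 (chromosome 4, 57190841 to 57339040, minus strand) had a single lysine peak of 1784 bp over its listed start and no PBS peak. A length gained of 1000 bp or more was found in 0.447% of all genes. The peak was wide but weak, above 20.6% of its list, with 716 bp of it in narrow blocks, and it was absent once peaks under a −log10 q of 5, or under a fold of 4, were dropped. It also covered the non-coding gene Gm12536, so the gene it belongs to cannot be told apart. Ptpn4 (chromosome 1, 119652467 to 119837585, minus strand) had no lysine peak and 358 bp in PBS, from a peak of 492 bp centred 402 bp before its listed start. The remaining broadly expressed members, Ptpn9 and Ptpn11, had no peak. Ptpn11 encodes SHP-2, so both SHP genes were without a called peak in these cells.

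Of the 21 members of other tissues 17 had no peak in either library and none was marked. The 17 included the neuronal and endocrine genes Ptprn and Ptprn2, the adhesion phosphatases Ptprd, Ptprf, Ptprm, Ptprt and Ptpru, the endothelial Ptprb, and Ptpn5, a brain phosphatase. Ptprh, Ptprq, Ptprg, Ptprz1, Ptpn13, Ptpn14, Ptpn20 and Ptpn21 complete them. The others had 1 peak each. Ptpro (chromosome 6, 137252299 to 137464634), known from podocytes and also from macrophages, had the only peak called in both libraries, 340 bp wide in lysine and 290 bp in PBS, 64 kb from its start. In PBS alone, a peak of 456 bp lay in Ptprr (chromosome 10, 116018188 to 116274932), a phosphatase of MAP kinases known from neurons, and was stronger than 86.5% of its list. Ptprr overlaps the gene Taf7l2, and its covered length was the same without the bases spanned by Taf7l2. Ptprk (chromosome 10, 28074820 to 28597397), an adhesion phosphatase, had a PBS peak of 331 bp deep in the gene, 447 kb from its start. Ptprs (chromosome 17, 56412426 to 56476561), a receptor for proteoglycans in neurons that is also known from plasmacytoid dendritic cells, had a PBS peak of 339 bp at its start, with 263 bp inside the gene, and the peak also covered the non-coding gene Gm32822.

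Nearly all lysine peaks on the phosphatase genes had a PBS counterpart, and fewer PBS peaks had a lysine one. Of 24 lysine peaks 22 (91.7%, exact 95% interval 73.0 to 99.0) overlapped a PBS peak by at least 1 bp. Of 34 PBS peaks 22 (64.7%, 46.5 to 80.3) overlapped a lysine peak. In the whole lists the shares were 75.3% in lysine and 61.9% in PBS, and each lay within the interval of its library. On leukocyte members 13 of 13 lysine peaks and 13 of 17 PBS peaks were overlapped. The 12 PBS peaks without a partner had a median width of 392 bp and those with a partner one of 621 bp, where the whole PBS list had 381 and 511 bp. The 2 lysine peaks without a partner were those at the starts of Ptpn3 and Ptpn18, with a median width of 1044 bp beside 493 bp for those with a partner. The intervals cover counting error only, and peaks on 1 gene are not independent.

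**Figure D4:**
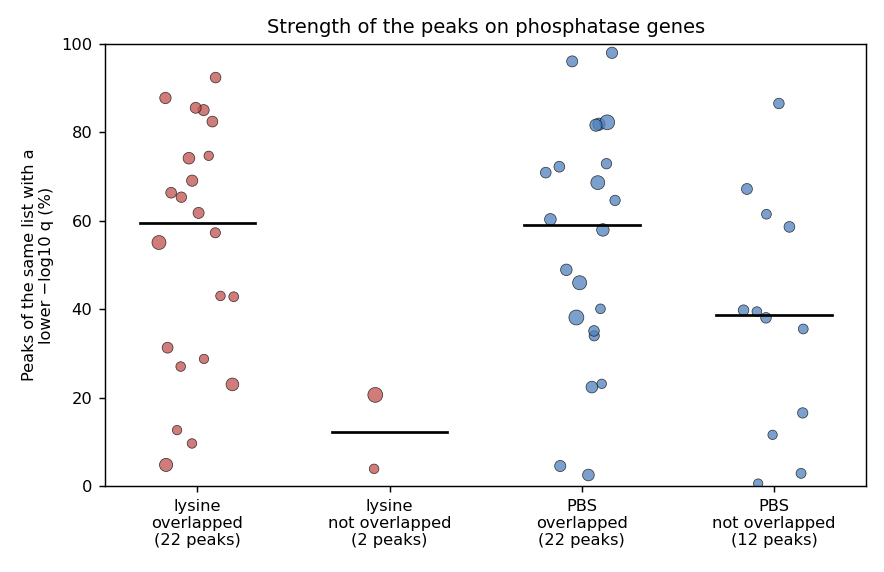
Strength of each peak on a phosphatase gene, as the percentage of peaks in its own list with a lower −log10 q (y axis), for peaks overlapped or not by the other list. Red points are lysine and blue points PBS peaks, point size grows with width and bars are medians. The medians of overlapped peaks are 59.5 in lysine and 59.1 in PBS, and those of the others 12.2 in lysine (2 peaks) and 38.7 in PBS (12 peaks).

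Many peaks lay far inside the genes. On members with a listed start 7 of 22 peaks in lysine and 7 of 30 in PBS touched a start window, and 13 in lysine and 19 in PBS lay over 10 kb from the most upstream start. Of the peaks that touched a start window 5 of 7 in lysine and 5 of 7 in PBS overlapped the other list, and of the others 15 of 15 in lysine and 15 of 23 in PBS. Over all protein-coding genes with a listed start, 67.4% of the peaks on them in lysine and 60.7% in PBS touched a start window. Of all such peaks at start windows 85.1% in lysine and 80.4% in PBS overlapped the other list, and of those elsewhere 66.0% in lysine and 46.1% in PBS. Peaks over 10 kb from the start were not counted over all genes. Members had a median length of 104 kb and all protein-coding genes one of 17.1 kb. None of these shares was matched for gene length.

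Genes that act with these phosphatases differed by list. Over all protein-coding genes 31.4% had a peak in lysine and 34% in PBS, and 9.02% were marked in lysine and 11.4% in PBS. Of genes with a peak in either library 58.2% were shorter in lysine and 41.5% longer. Among 27 kinases and kinase regulators 14 had a peak in lysine and 16 in PBS, 9 were marked in lysine and 10 in PBS, and 9.223 kb were covered in lysine and 17.965 kb in PBS. Of those with a peak, 13 were shorter in lysine and 3 longer. A peak lay on 51.9% of this list in lysine and 59.3% in PBS. The shares were not matched for gene length, whose median was 61.3 kb for this list and 17.1 kb for all genes. Of all genes of 20 to 100 kb, 40.2% had a peak in lysine and 43.5% in PBS. Syk, a kinase downstream of receptors with activating motifs, had 758 bp in lysine and 2937 bp in PBS, and the Src family kinase Lyn 828 bp in lysine and 2208 bp in PBS. Abl2 had 443 bp in lysine and 1580 bp in PBS, while Csk, which sets the inhibitory phosphotyrosine of Src kinases, had 1256 bp in lysine and 1539 bp in PBS. Among 22 receptors with inhibitory motifs, the docking sites of Ptpn6 and Ptpn11, 7 had a peak in lysine and 12 in PBS, and 3 were marked in lysine and 7 in PBS. Their covered length was 2.919 kb in lysine and 10.323 kb in PBS. Of these receptors, 11 were shorter in lysine and 1 longer. The share with a peak in lysine, 31.8%, was near that of all genes, and in PBS it was 54.5%. Lair1 had 538 bp in lysine and 2039 bp in PBS, and Clec4a2 0 bp in lysine and 1468 bp in PBS. Sirpa had 359 bp in lysine and 1385 bp in PBS and Milr1 645 bp in lysine and 1147 bp in PBS.

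For adaptors of tyrosine phosphorylation the direction of the total depended on the peaks used. Of 38 genes 22 had a peak in lysine and 24 in PBS, 9 were marked in lysine and 14 in PBS, and 16 were shorter in lysine and 9 longer. A peak lay on 57.9% of the adaptors in lysine and 63.2% in PBS, against 31.4% and 34% of all genes. These shares were not matched for gene length, whose median was 51.4 kb for adaptors and 17.1 kb for all genes. Of all genes of 20 to 100 kb, 40.2% had a peak in lysine and 43.5% in PBS. Of all genes with a peak 58.2% were shorter in lysine and 41.5% longer. The covered length of the adaptors was 16.304 kb in lysine and 19.914 kb in PBS. With equal numbers of peaks lysine had 72 bp more, and with peaks of at least 1 kb 510 bp more. Vav3 had 772 bp in lysine and 2957 bp in PBS, Fyb 1485 bp in lysine and 2396 bp in PBS, and Skap2 0 bp in lysine and 1138 bp in PBS. The ubiquitin ligase Cbl had 2173 bp in lysine and 1958 bp in PBS and the Src-like adaptor Sla 1841 bp in lysine and 522 bp in PBS.

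In the other phosphatase families with a cysteine-based active site or a related fold, the total was longer in lysine. Of 49 genes, the dual specificity, myotubularin, Ptp4a and Cdc25 families among them and some, such as Styx and Mtmr12, without an active enzyme, 26 had a peak in lysine and 31 in PBS. Fewer genes were thus touched in lysine, but 12 were marked in lysine and 3 in PBS, and 14.642 kb were covered in lysine and 11.147 kb in PBS. Those longer in lysine numbered 19, those shorter 12. Of all protein-coding genes 31.4% had a peak and 9.02% were marked in lysine, and 34% and 11.4% in PBS. Among all genes with a peak 41.5% were longer in lysine and 58.2% shorter. Dusp16, a phosphatase of stress-activated MAP kinases, had 1454 bp in lysine and 393 bp in PBS, and the tensin Tns3 had 1376 bp in lysine and 374 bp in PBS. Mtmr7 had 1392 bp in lysine and 1221 bp in PBS, and Ssh2, which acts on cofilin, 844 bp in lysine and 1810 bp in PBS. The median difference over genes with a peak was 55 bp for these phosphatases, -314 bp for kinases, -484 bp for inhibitory receptors and -40 bp for adaptors, compared with -38 bp over all genes. With peaks of a fold of at least 4 alone the total of the other phosphatases turned to a difference of -379 bp. As deposited this difference was 3495 bp, and it was smaller by narrow blocks (808 bp) and from a −log10 q of 5 (777 bp). It was larger from a −log10 q of 2 (3767 bp), with peaks of at least 1 kb (4352 bp) and with equal numbers of peaks (5196 bp).

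**Figure D5:**
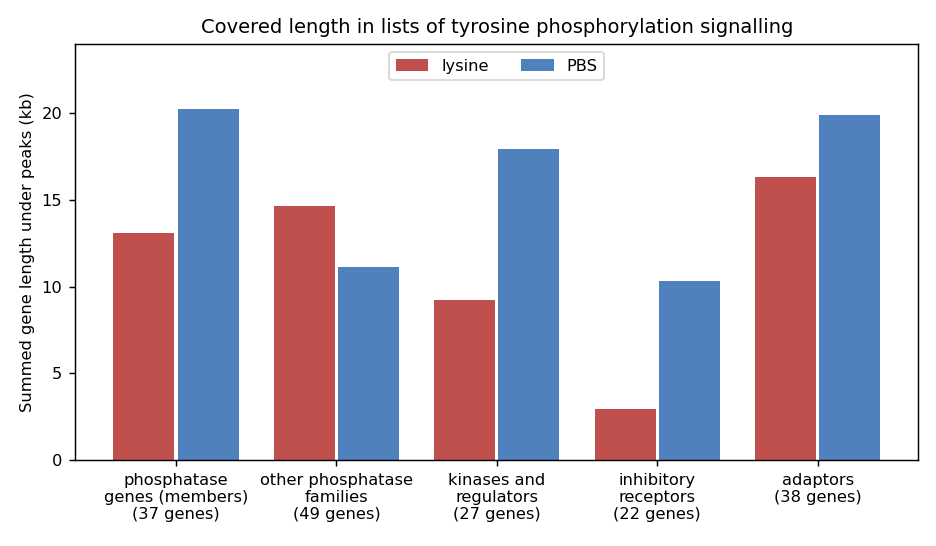
Summed gene length under called H3K79me2 peaks (y axis, kb) in lysine (red, left) and PBS (blue, right) for the phosphatase genes and 4 related lists, with the number of genes in brackets. The members have 13.068 kb in lysine and 20.224 kb in PBS, and the other phosphatase families are the only list with the longer bar in lysine (14.642 kb, against 11.147 kb in PBS).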

How the data were processed

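H3K79me2 ChIP-seq libraries of formaldehyde-fixed BMDCs given lysine or PBS were read from both ends, per the labels' protocols, and grouped by sample title. Tools named in the submitters' processing notes, without roles, are Bowtie2 2.3.4.1, MACS2 2.1.2, Picard, ChIPseeker, FastQC, Trimmomatic 0.38 and cutadapt 1.18, with the build GRCm38. Calling thresholds, and whether inputs were used, were not given in the sources used here. Peaks were deposited per sample in files without header, read by the MACS2 layout. The deposited fold enrichment is a linear ratio over local background, significance was deposited as −log10 p and −log10 q, and the deposited score is 10 times −log10 q. All depend on depth, which is unknown. Ranks and medians were taken within a list. The alternatives by significance and fold applied the same cutoffs to both lists, so the differences they give, turns of direction included, also depend on depth.

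Covered length is the number of bp of a gene, end to end, under broad peaks. Starts and strands came from RefSeq promoter windows (GRCm38.p6), with none at hand for 5 members. Every member was accounted for, and each of the other gene lists gave for naming its 3 longest covered genes and the 3 that differed most. The members, classes and lists were chosen with earlier results of these data known. Covered lengths were tested on simulated data and checked against bedtools 2.31.1 (0 of 21900 genes differed). Scripts ran under Python 3.11.15 with pandas 2.3.3, numpy 2.4.6, matplotlib 3.10.9 and scipy 1.17.1. Alternatives covered significance, fold, width and number of peaks, narrow blocks, gene ends, overlapping genes, the marking threshold, the classes and the overlap rule.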

Additional observations from a re-analysis of the deposited data

How the results depend on the processing

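No paired analysis was possible because each condition has 1 library, and leaving out a replicate was not possible for the same reason. The total difference of the members, -7156 bp, kept its sign under all alternatives: -6960 bp from a −log10 q of 2 upward, -4639 bp from 5, -7743 bp from a fold of 4, -2105 bp with peaks of at least 1 kb, -4552 bp with equal numbers of peaks, -5860 bp by narrow blocks, -7801 bp with 1 kb added at both ends and -4377 bp without Ptprj. Leukocyte genes kept more covered length than genes of other tissues, by 1.58 percentage points of gene length in lysine and 2.43 in PBS, not matched for gene length. In the same order of alternatives this was 1.30, 0.508, 1.04, 0.501, 1.58, 1.06, 1.68 and 1.41 in lysine and 2.26, 1.34, 1.89, 0.993, 2.12, 1.76, 2.54 and 1.85 in PBS. With Ptpro and Ptprs as leukocyte members it was 1.06 in lysine and 1.64 in PBS, leaving 0 genes of other tissues with a peak in lysine and 2 in PBS. With broadly expressed members joined to other tissues it was 1.52 in lysine and 2.36 in PBS, with 8 such genes in lysine and 11 in PBS. From a −log10 q of 5 upward, 8 members had a peak in lysine and 8 in PBS, 4 were marked in lysine and 4 in PBS, 6 were shorter and 3 longer in lysine, and 0 genes of other tissues had a peak in lysine and 1 in PBS. With peaks of at least 1 kb, 3 members had a peak and were marked in lysine and 3 in PBS, 3 were shorter and 1 longer in lysine, 2 leukocyte members had a peak in each library and 0 genes of other tissues. With equal numbers of peaks 4 members were longer in lysine. At 250 bp, 11 members were marked in lysine and 14 in PBS. Single genes turned as follows: Ptpn18 (291 bp) with equal numbers of peaks, Ptprc (185 bp), Ptpn1 (26 bp) and Ptpn2 (335 bp) from a −log10 q of 5, Ptprc (88 bp) and Ptpra (189 bp) at a fold of at least 4, and Ptpre (558 bp) from a −log10 q of 2 and with equal numbers of peaks. The adaptor total turned with peaks of at least 1 kb (510 bp) and equal numbers of peaks (72 bp), and the total of other phosphatases at a fold of at least 4 (-379 bp), alternatives on these lists and on Ptprj having been chosen after seeing the data. The cause of these turns was not tested. Read depth is unknown, so a gene without a peak may carry the mark below detection.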
